A study of Sus scrofa with 9 samples.

Results

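Transcripts of the nuclear-encoded respiratory chain were measured by RNA sequencing in immature Sertoli cells of the pig. Sertoli cells are the supporting cells of the testis cords, in contact with the germ cells they feed. The genes were chosen by name: a row of the deposited gene table that does not lie on the mitochondrial genome and whose symbol starts with NDUF, UQCR, COX followed by a number, or ATP5, or is SDHA, SDHB, SDHC, SDHD, CYC1 or CYCS. This gave 83 of the 20681 genes in the table: 37 for complex I, 3 for complex II, 6 for complex III, cytochrome c itself, 22 for complex IV and 14 for complex V. Of these, 77 reached 1 FPKM (fragments per kilobase of gene length, scaled to library size) in at least 3 of 9 libraries and were tested, and 79 had a value above 0 in all 9. The 6 that were not tested were NDUFS8, NDUFA4L2, COX4I2, COX7A1, COX20 and COX19.

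The cells came from testes of 80 to 90 days of gestation and grew in minimum essential medium with 10% fetal bovine serum at 37 °C and 5% CO2. Control cells were not heated, HS0.5 cells were sampled at the end of 0.5 h at 43 °C (0 h of recovery), and HS0.5-R36 cells were heated alike and then kept at 37 °C to recover for 36 h, with 3 libraries of total RNA in each group. Cells were seeded 6 h before the exposure, and no library is from an unheated culture of the later age, so culture time and the after-effect of heat cannot be told apart at 36 h. The labels do not say whether the 3 libraries of a group are separate cultures or animals, and p-values cover the spread between these libraries, which may be technical.

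The respiratory chain sits in the inner mitochondrial membrane. Complexes I and II take electrons from NADH and succinate and pass them to ubiquinone, complex III hands them to cytochrome c, and complex IV gives them to oxygen. Complexes I, III and IV pump protons, and complex V, the ATP synthase, uses the gradient to make ATP. The mitochondrial genome encodes 13 subunits. The rest, together with the assembly factors that insert cofactors and join subunits, are made in the cytosol from nuclear genes and imported. Sertoli cells are known for a strongly glycolytic metabolism that exports lactate to germ cells.

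Libraries held 18110565 to 21034021 reads, recovered from the deposited values as described below. The 83 genes took 0.605% to 0.939% of these reads, and genes of the mitochondrial genome 4.0% to 6.70%. Control replicate 2 stood apart: its log2 expression correlated with control replicates 1 and 3 at 0.974 and 0.971, against 0.994 between those. Among the 77 tested genes it was the highest control for 71 (92.2%, against 49.8% of all tested genes) and the highest of all 9 libraries for 66. HS0.5-R36 replicate 1 was the lowest of its group for 56 (72.7%, against 42.3% of all tested genes). The main counts and medians are therefore also given without control replicate 2, and the count at 36 h without HS0.5-R36 replicate 1. Relative to the recovered reads, the library size by which the FPKM had been divided was 0.902 to 0.973 in control and HS0.5 and 1.17 to 1.19 in HS0.5-R36, a scaling step that the sources used here do not describe.

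**Figure D1:**
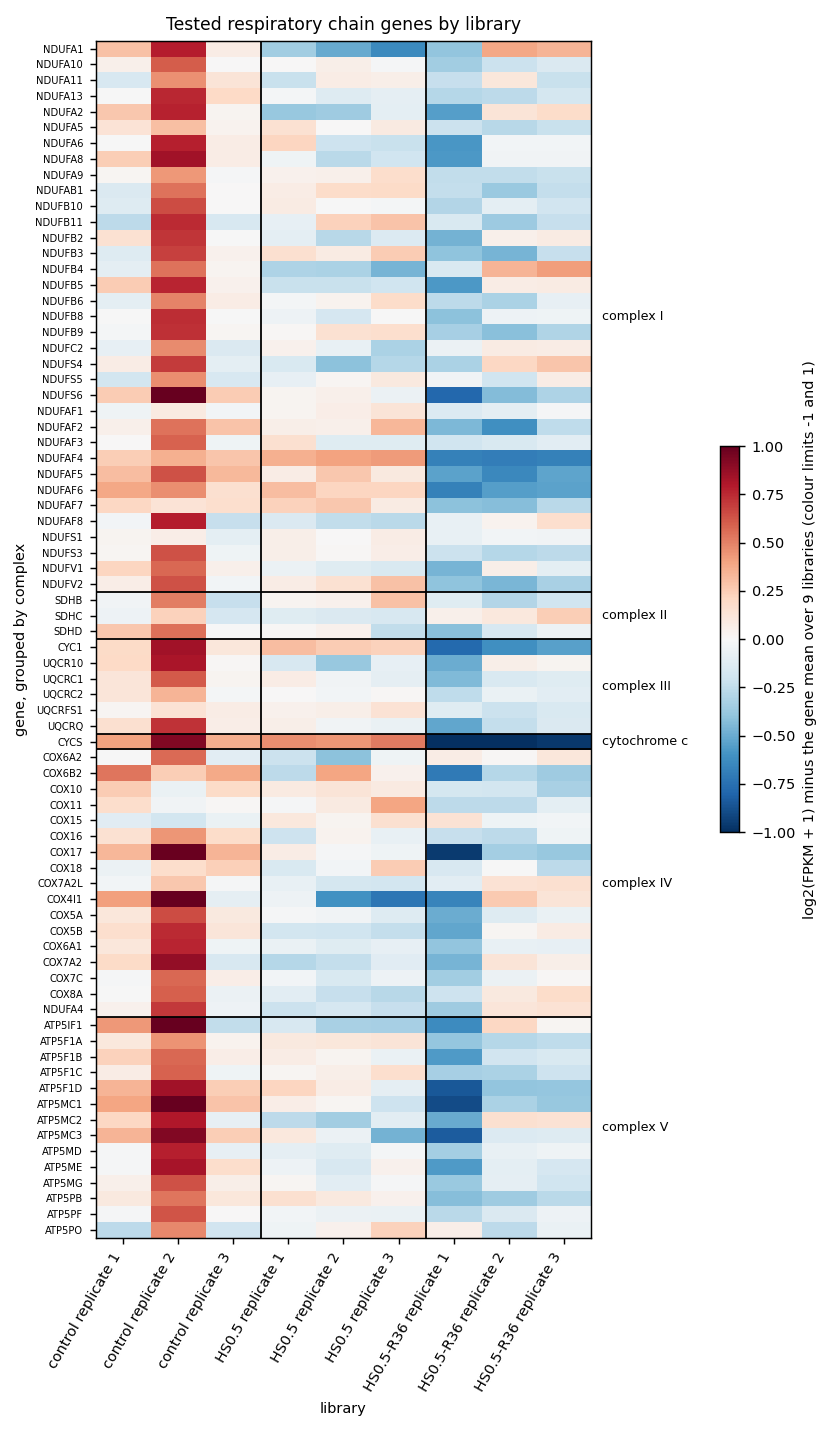
Log2(FPKM + 1) of 76 of the 77 tested genes (rows, by complex) in the 9 libraries (columns), as the difference from each gene's mean over the libraries, with colours limited at -1 and 1. Control replicate 2 is the reddest column (highest of 9 for 66 of the 77), the row of CYCS turns deep blue in the 3 HS0.5-R36 libraries, and HS0.5-R36 replicate 1 is the bluest column of its group.

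In control cells the cytochrome bc1 genes, cytochrome c and the ATP synthase genes had the highest levels per deposited gene length. Among tested genes the median of the group means was 111 FPKM for complex III, 59.9 for complex V, with CYCS between them at 81.9, 30.7 for complex IV, 21.7 for complex I and 19.1 for complex II. ATP5F1B, the catalytic beta subunit of ATP synthase, led with 408, 519 and 365 FPKM in control replicates 1, 2 and 3, followed by ATP5F1D, the delta subunit, with 283, 400.2 and 265. CYC1, cytochrome c1, had 231, 361 and 218. Control replicate 2 was the highest in each of these, and the 3 ranges overlapped between neighbours in this order. The lowest tested gene was COX6B2, a testis isoform of a complex IV subunit, with 1.57, 1.11 and 1.31 FPKM. The summed FPKM of the 83 genes was 4158, 6162 and 3949.8 in the controls, 3920.0, 3798 and 3785 in HS0.5 and 2891, 3429 and 3558 in HS0.5-R36. The HS0.5-R36 sums lay below all controls. The HS0.5 sums did too, though HS0.5 replicate 1 and control replicate 3 nearly met. The FPKM of all genes also summed lower in HS0.5-R36 (277289 to 284828, against 336078 to 406079 in control). As a share of all FPKM, the 83 genes had 1.22%, 1.52% and 1.18% in the controls. They had 1.12%, 1.06% and 1.03% in HS0.5 and 1.02%, 1.24% and 1.25% in HS0.5-R36. The HS0.5-R36 shares overlapped the controls, and the HS0.5 shares lay below them. The same held for shares of reads.

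HS0.5 was set against control to ask what had changed by the end of the heat. At that time the estimates for most respiratory chain transcripts were below 0, with a smaller median when control replicate 2 was left out. None of the 77 genes passed (limma on log2(FPKM + 1), adjusted p under 0.05 over all 11479 genes tested), where 3.62% of all genes did, 1.32% downward and 2.29% upward. At an unadjusted p under 0.05, 19 were lower and 1 was higher (15.8% and 14.6% of all genes). A voom fit on recovered reads also called 0 (3.80% of all genes), with 25 lower and 1 higher at an unadjusted p under 0.05 (15.9% and 15.1% of all genes). The median log2 change of the 77 was -0.27, against -0.01 over all genes, and 66 were negative. Without control replicate 2 the median was -0.08, and 4 were lower and 6 higher at an unadjusted p under 0.05 (11.6% and 14.8% of all genes). By complex, the medians were -0.18 for I, -0.15 for II, -0.21 for III, -0.35 for IV and -0.29 for V. Without control replicate 2 they were -0.01, -0.04, -0.07, -0.17 and -0.11.

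The 3 HS0.5 libraries lay below the 3 controls for 28 of the 77 genes and above them for 2, where 20% and 20.5% of all genes did so. Without control replicate 2 these counts were 29 and 13 (25% and 28.2% of all genes). NDUFA1, a small membrane subunit needed to build complex I, came nearest to passing. It was at 13, 18.7 and 11 FPKM in the controls, 7.97, 7.03 and 6.36 in HS0.5 and 7.66, 13.9 and 13.5 in HS0.5-R36. All HS0.5 values lay under all controls, and the log2 change was -0.88 ± 0.23 (SE, limma adjusted p = 0.071). It passed when each library's trend with gene length was removed (-0.69, limma adjusted p = 0.049, with 4.92% of all genes passing) and without HS0.5-R36 replicate 1 (limma adjusted p = 0.037), and the adjusted p over all 18 alternatives ran from 0.037 to 0.24. COX4I1, the largest nuclear-encoded subunit of complex IV, had the lowest estimate, -1.01 ± 0.37 (SE, limma adjusted p = 0.12). Its values were 35.3, 68 and 24.6 FPKM in the controls, 25.4, 16.9 and 15.5 in HS0.5 and 16.3, 31.8 and 28.9 in HS0.5-R36. The controls spread widely from replicate 3 to replicate 2, and HS0.5 replicate 1 lay above control replicate 3. ATP5IF1, the inhibitor that stops ATP synthase from running backwards, was at 19, 29 and 11.5 FPKM in control and 12.2, 10.8 and 10.7 in HS0.5, and these overlapped (-0.68, limma adjusted p = 0.17).

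HS0.5-R36 was set against control to ask which transcripts differed after recovery. Here 39 of the 77 genes had fallen and 0 had risen, which is 50.6% of the genes. Of all genes tested, 63.1% passed, 34.6% downward and 28.5% upward, so most tested genes passed in this comparison. The median log2 change was -0.44, against -0.06 over all genes, and 74 of the 77 were negative. The 3 recovered libraries lay below the 3 controls for 44 genes and above them for 1, COX15 (36.4% and 30.5% of all genes). Without control replicate 2 these counts were 44 and 4 (43.1% and 36.1%). Per complex, 18 of 36 tested genes fell in complex I, 1 of 3 in complex II, 5 of 6 in complex III, CYCS itself, 5 of 17 in complex IV and 9 of 14 in complex V. Without control replicate 2, 15 fell in complex I, complex II had 1 fall and 1 rise, and the counts of the others did not change. The medians were -0.42 for complex I, -0.29 for II, -0.49 for III, -0.35 for IV and -0.52 for V. Without control replicate 2 they were -0.23, -0.07, -0.28, -0.23 and -0.33. With the same sum per library, which moved the median of all genes to 0.23, the median of complex II was 0.04, still below that of all genes. With quantile normalization, where the median of all genes was 0.01, those of II, III and IV were 0.06, 0.10 and 0.03.

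Without control replicate 2, 36 genes fell and 1 rose, with 37.4% of all genes downward and 31% upward. The median was then -0.24, or -0.19 relative to all genes. The falls of NDUFA8, NDUFB6 and NDUFV1 were lost, the other 36 were kept, and SDHC was gained as a rise. Without HS0.5-R36 replicate 1, 26 of the 39 were kept, and the share of all genes under that fit is not given. Both rescalings of the libraries altered the picture more. With FPKM rescaled to the same sum in every library, the median of all genes moved from -0.06 to 0.23, 13 of the respiratory chain genes fell and 5 rose (19.7% and 43.3% of all genes), and their median was -0.11, which is -0.35 relative to all genes against -0.38 as deposited. With quantile normalization 20 fell and 11 rose (30.2% and 30.8% of all genes), with a median of -0.093, or -0.10 relative to all genes. The voom fit called 33 lower and 1 higher (30.2% and 33% of all genes, 63.2% in all). Falls were more frequent among abundant genes in general: with a filter of at least 5 FPKM in 3 libraries, 35 of 68 fell, where 43.4% of all genes did and 22.1% rose. Under that filter the median was -0.45, against -0.21 over all genes, which is -0.24 relative to them.

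**Figure D2:**
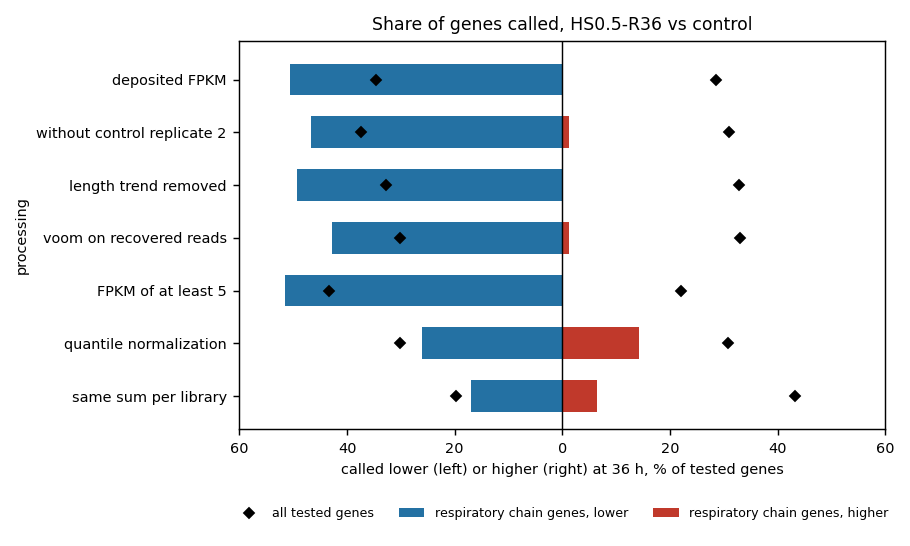
Share of the tested respiratory chain genes called lower (blue, to the left) or higher (red, to the right) in HS0.5-R36 against control under 7 ways of processing, in percent, with black diamonds for all tested genes. The blue bar reaches 50.6% for the deposited FPKM and 16.9% with the same sum per library, where it is shorter than the share of all genes (19.7%).

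**Figure D3:**
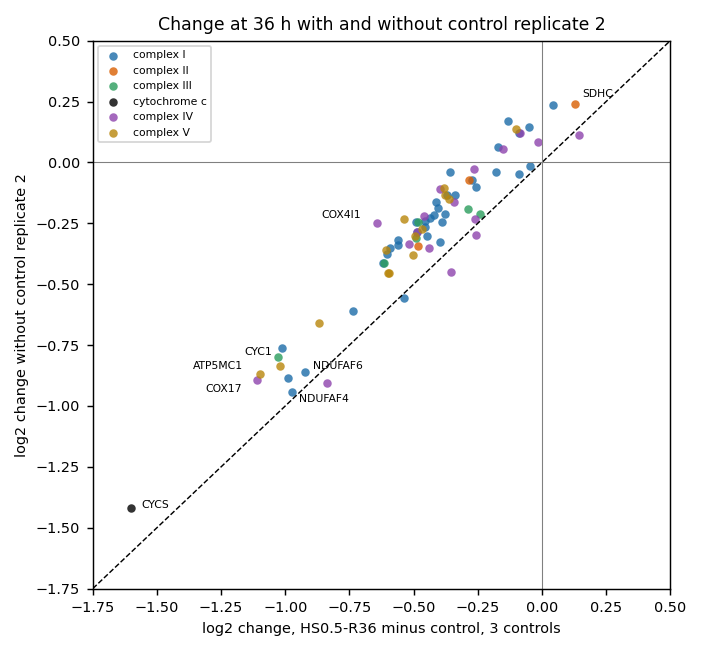
Log2 change at 36 h of the 77 tested genes fitted with 3 controls (horizontal axis) and without control replicate 2 (vertical axis), coloured by complex, with a dashed line of equality. Most points lie above the line, so the falls were smaller without that library (medians -0.44 and -0.24), while CYCS stayed lowest at -1.42.

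At 36 h, 11 genes fell under every alternative that tested them (18, or 17 for NDUFAF2, NDUFAF5 and COX6B2). These were CYCS, the bc1 subunit CYC1, the copper chaperone COX17, the isoform COX6B2, the ATP synthase subunits ATP5F1D and ATP5MC1, the complex I subunit NDUFS6 and the complex I assembly factors NDUFAF2, NDUFAF4, NDUFAF5 and NDUFAF6. They came from complexes I, III, IV and V and from cytochrome c, and none from complex II. The share of all tested genes that fell in every alternative is not given here, so the count of 11 has no background.

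**Figure D4:**
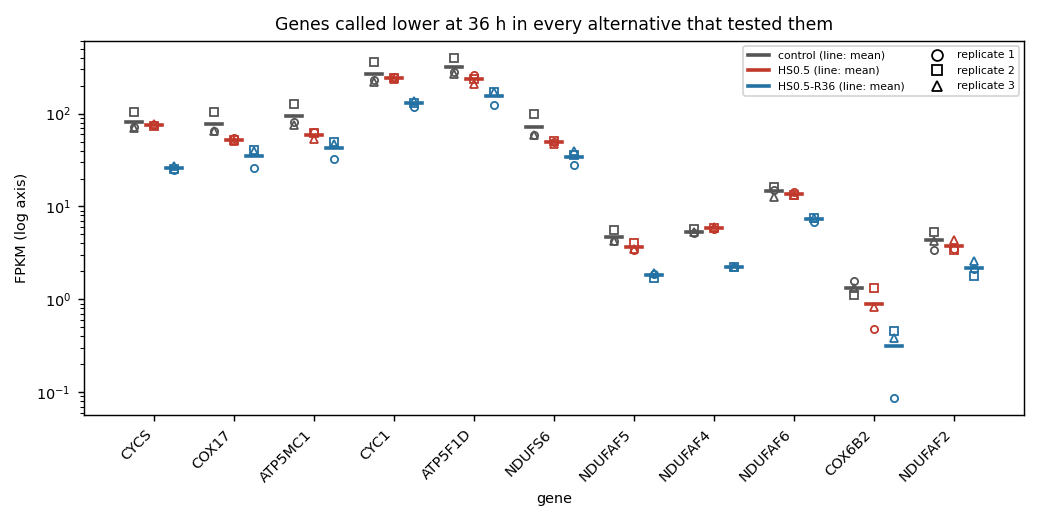
FPKM on a log axis of the 11 genes that fell at 36 h in every alternative that tested them, by library (circle, square and triangle for replicates 1, 2 and 3) and group (grey control, red HS0.5, blue HS0.5-R36), with a line at each group mean. The blue points lie under all grey points for each gene, and the square of control replicate 2 is the highest grey point for all but COX6B2.

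Cytochrome c had the lowest estimate of the 77 on the log2(FPKM + 1) scale. With voom that of COX6B2 was lower (-2.07 against -1.54), and with quantile normalization those of NDUFAF5 (-1.21) and NDUFAF4 (-1.17) were lower than its -1.15. CYCS (ENSSSCG00000016714, chromosome 18, 47169866 to 47173866) was at 71.9, 104 and 69.9 FPKM in the controls, 75.3, 74 and 78.1 in HS0.5 and 24.7, 25.6 and 27.3 in HS0.5-R36. The controls and HS0.5 overlapped, and the recovered libraries lay far below both. The mean went from 81.9 ± 19.1 to 25.9 ± 1.33 FPKM (SD, n = 3 each), and the log2 change was -1.60 ± 0.14 (SE, limma adjusted p = 1.2e-05). It was -1.42 without control replicate 2, -1.26 with the same sum per library and -1.15 with quantile normalization. Positions here and below are those of the deposited table, and no source used here names their genome build. Cytochrome c genes have processed pseudogenes in mammals, and how the authors' counting treated reads shared with such copies is not stated.

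In complex III, CYC1 (ENSSSCG00000031918, chromosome 4, 606516 to 608996), the subunit that hands electrons to cytochrome c, was at 231, 361 and 218 FPKM in the controls, 250.3, 240.4 and 236 in HS0.5 and 117, 131 and 138 in HS0.5-R36. The recovered values lay under every other library, and the log2 change was -1.03 ± 0.17 (SE, limma adjusted p = 0.00068) and -0.80 without control replicate 2. The estimates for the core proteins that hold the complex together were smaller, and the difference from CYC1 was not tested. UQCRC1 went from 127, 179 and 119 to 86.1, 105 and 108 FPKM (-0.49, limma adjusted p = 0.02) and UQCRC2 from 55.9, 65.1 and 50.7 to 42.9, 48.9 and 47.7 (-0.29, limma adjusted p = 0.03). UQCRFS1, the Rieske iron-sulfur protein, went from 39.7, 43.3 and 41.2 to 35.9, 33.6 and 35.1 (-0.24, limma adjusted p = 0.014). These 3 fell with the deposited scaling, and with quantile normalization their estimates were positive (0.13, 0.23 and 0.22). Under that normalization UQCRC2 and UQCRFS1 passed as rises. UQCRQ, a small subunit, fell by 0.62 on the log2 scale (limma adjusted p = 0.011), and UQCR10 did not pass (-0.48, limma adjusted p = 0.079).

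In complex I, 3 of 5 tested core subunits, 10 of 23 accessory subunits and 5 of 8 assembly factors fell. Over the 18 genes that fell the log2 changes ran from -1.01 to -0.38, and over the 18 that did not pass from -0.49 to 0.04. The medians were -0.45 for core subunits, -0.40 for accessory subunits and -0.64 for assembly factors, and the difference between these classes was not tested. With quantile normalization the core median turned to 0.10, while the accessory and assembly medians were -0.12 and -0.69.

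The assembly factors act before and during the joining of complex I modules and are not part of the finished enzyme. NDUFAF4 (ENSSSCG00000004342, chromosome 1, 64034406 to 64044800), an early factor, was at 5.15, 5.65 and 5.29 FPKM in the controls, 5.66, 5.85 and 5.96 in HS0.5 and 2.25, 2.21 and 2.25 in HS0.5-R36. The replicates of each group lay close together, and the recovered libraries lay far under the others. Its log2 change was -0.98 ± 0.07 (SE, limma adjusted p = 3.9e-06). NDUFAF5 (ENSSSCG00000007076, chromosome 17, 22480340 to 22511180), an enzyme that hydroxylates a core subunit during assembly, was at 4.2, 5.52 and 4.25 FPKM in the controls, 3.43, 4.07 and 3.49 in HS0.5 and 1.9, 1.69 and 1.92 in HS0.5-R36. All recovered values lay under all others (-0.99 ± 0.11 SE, limma adjusted p = 4.4e-05). NDUFAF6 (ENSSSCG00000006093, chromosome 4, 41622866 to 41655662), which acts early on the membrane arm, was at 15.2, 16.1 and 12.8 FPKM in the controls, 14.4, 13.4 and 13.4 in HS0.5 and 6.76, 7.46 and 7.52 in HS0.5-R36, again with no overlap (-0.92 ± 0.09 SE, limma adjusted p = 3e-05). SNORA14B lies inside NDUFAF6 on the same strand in the deposited table.

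NDUFAF7, a methyltransferase needed for complex I assembly, went from 9.45, 8.95 and 9.17 to 5.81, 5.75 and 6.5 FPKM (-0.54, limma adjusted p = 0.00032) and fell in 17 of the 18 alternatives. The exception was the same sum per library (limma adjusted p = 0.086). NDUFAF2, a late factor, went from 3.43, 5.25 and 4.23 to 2.13, 1.79 and 2.59 (-0.73, limma adjusted p = 0.0019). NDUFAF1, NDUFAF3 and NDUFAF8 did not pass, with log2 changes of -0.09, -0.34 and -0.13. NDUFAF8 has a deposited length of 246 bp and was at 47.5, 84 and 41 FPKM in control and 45.8, 49.6 and 54.4 at 36 h, where control replicate 2 alone lay above the recovered range.

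Among the subunits of complex I, NDUFS6 (ENSSSCG00000017114, chromosome 16, 78993912 to 79000007), a zinc-binding accessory subunit of the matrix arm, had the largest fall. It was at 58.5, 99.1 and 58.6 FPKM in the controls, 49.9, 50.7 and 47.1 in HS0.5 and 28, 36 and 39.2 in HS0.5-R36. The groups followed each other without overlap from control to HS0.5 to HS0.5-R36, and the log2 change at 36 h was -1.01 ± 0.20 (SE, limma adjusted p = 0.0018). Of the core subunits that carry electrons, NDUFV2 went from 38.9, 58.2 and 36.4 to 27.9, 26.8 and 29.4 FPKM (-0.62, limma adjusted p = 0.0072). NDUFV1, which binds NADH, went from 27.9, 36.2 and 24.9 to 17.1, 25 and 22.3 and HS0.5-R36 replicate 2 lay above control replicate 3 (-0.45, limma adjusted p = 0.032, and 0.078 without control replicate 2).

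NDUFS1, the largest core subunit, was at 30.9, 31.7 and 28.3 FPKM in the controls, 31.6, 30.4 and 32 in HS0.5 and 28.7, 29.7 and 29.6 in HS0.5-R36. The groups overlapped, and the log2 change of -0.04 had a 95% interval of -0.20 to 0.11 (limma adjusted p = 0.6). With the same sum per library and with quantile normalization it passed as a rise (0.29 and 0.36). NDUFS8, a core iron-sulfur subunit, was at 0.0887 to 0.256 FPKM and was not tested. Its deposited length of 9685 bp covers a span that overlaps UNC93B1 and TCIRG1, while the RefSeq gene of that name in Sscrofa11.1 spans 4098 bp.

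In complex II, SDHD fell at 36 h and SDHC and SDHB did not pass. SDHC and SDHD are the membrane anchors that bind ubiquinone, and SDHB carries the iron-sulfur clusters. SDHD went from 68, 83 and 55.9 to 41.8, 50.3 and 54.2 FPKM (-0.48, limma adjusted p = 0.022). SDHC (ENSSSCG00000030318, chromosome 4, 89130355 to 89169121) was at 13.4, 16.5 and 12.2 FPKM in the controls, 12.6, 12.5 and 12.3 in HS0.5 and 14.4, 15 and 16.6 in HS0.5-R36. The recovered values lay above control replicates 1 and 3, with control replicate 2 among them (0.13, limma adjusted p = 0.32), and SDHC rose without that library (0.24, limma adjusted p = 0.016). SDHC also passed as a rise with the same sum per library and with quantile normalization. SDHB was not called (-0.29, limma adjusted p = 0.17).

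In complex IV, 4 of the 5 genes that fell were assembly factors or the isoform COX6B2, and COX5A was the single core-enzyme subunit. COX17 (ENSSSCG00000011893, chromosome 13, 140584363 to 140614159), which carries copper to the complex, was at 65.1, 103 and 65.5 FPKM in the controls, 54.6, 51.4 and 50.2 in HS0.5 and 26.1, 40.7 and 39.4 in HS0.5-R36. The 3 groups did not overlap, and the log2 change was -1.11 ± 0.21 (SE, limma adjusted p = 0.0012). POPDC2 overlaps it on the same strand in the deposited table. COX10, which makes heme O, fell from 3.96, 2.96 and 3.74 to 2.69, 2.65 and 2.31 FPKM (-0.35, limma adjusted p = 0.011) and COX16 from 2.49, 3.26 and 2.56 to 1.66, 1.62 and 2.04 (-0.44, limma adjusted p = 0.0063). For COX10, control replicate 2 was the lowest control. COX15, which converts heme O to heme A, was at 10.0, 9.5 and 10.4 in control and 12.2, 10.5 and 10.7 at 36 h. All recovered values lay above the controls, but it was not called (0.14, limma adjusted p = 0.15). It passed as a rise with voom, with the same sum per library and with quantile normalization.

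Among the 8 structural subunits of complex IV, COX5A passed, and their median was -0.43, or -0.19 without control replicate 2. COX5A fell from 161, 235 and 159.6 to 105, 136 and 143 FPKM (-0.52, limma adjusted p = 0.021), and 0.08 was its estimate with quantile normalization. COX4I1 (-0.64), COX5B (-0.49), COX6A1 (-0.46), COX7A2 (-0.40), COX8A (-0.15) and NDUFA4 (-0.26), a complex IV subunit despite its name, did not pass, with limma adjusted p from 0.052 to 0.47. With quantile normalization COX8A and NDUFA4 passed as rises and 0 of the 8 fell (30.8% and 30.2% of all genes). Under that normalization 5 of the 8 rose against HS0.5 and 0 fell (32.1% and 32.5% of all genes). The estimate of COX4I1 was -0.25 without control replicate 2. COX7A2L, which links complexes III and IV into supercomplexes, did not pass (-0.01, limma adjusted p = 0.92). It passed as a rise with the same sum per library. Against HS0.5 it passed as a rise with the same sum, quantile normalization and voom, and without control replicate 2 or HS0.5-R36 replicate 1.

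Alternative isoforms of complex IV replace the common ones in muscle, in low oxygen or in testis. COX6B2 was at 1.57, 1.11 and 1.31 FPKM in the controls, 0.485, 1.34 and 0.831 in HS0.5 and 0.0872, 0.459 and 0.387 in HS0.5-R36, from 34, 22 and 10 reads per group. The recovered values lay under the other libraries, and the fall passed (-0.84 ± 0.18 SE, limma adjusted p = 0.0025). At these levels the added 1 FPKM makes the estimate smaller than the ratio of the values. The muscle isoform COX6A2 was at 13.6, 20.7 and 12.6 FPKM in control and 14.4, 13.8 and 14.9 at 36 h and did not pass (-0.08, limma adjusted p = 0.68). COX4I2, an isoform tied to oxygen sensing, had 3, 8 and 16 reads in the control, HS0.5 and HS0.5-R36 groups. COX7A1, another muscle isoform, had 5, 2 and 0 reads, and NDUFA4L2, induced in low oxygen, had 29, 71 and 33. None of these 3 was tested, and at so few reads counting error limits what the first pair can show. NDUFA4L2 was at 0.142, 0.282 and 0.233 FPKM in control, 0.71, 0.595 and 0.371 in HS0.5 and 0.136, 0.215 and 0.246 at 36 h, with HS0.5 above both other groups. COX19 (2, 2 and 8 reads) and COX20 (14, 9 and 6 reads) were as low.

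In complex V, 9 of 14 genes fell, with log2 changes from -1.10 to -0.47, and the other 5 ran from -0.54 to -0.10. The c ring that turns as protons pass is encoded by ATP5MC1, ATP5MC2 and ATP5MC3, whose mature proteins are the same. ATP5MC1 (ENSSSCG00000017544, chromosome 12, 25110535 to 25113485) was at 80.7, 126 and 74.6 FPKM in the controls, 64, 61.9 and 52.8 in HS0.5 and 32.4, 49 and 46.7 in HS0.5-R36. The 3 groups did not overlap, and the log2 change was -1.10 ± 0.21 (SE, limma adjusted p = 0.0016). ATP5MC3 fell from 25.9, 39.3 and 24.2 to 10.9, 18.3 and 18.5 FPKM (-0.87, limma adjusted p = 0.012), and ATF2 overlaps it on the same strand. ATP5MC2 did not pass: it was at 40.3, 61.4 and 32.8 in control and 24.1, 38.9 and 38.4 at 36 h (-0.38, limma adjusted p = 0.19). Reads from the similar coding parts of the 3 genes may be split between them, so their separate values are uncertain.

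In the catalytic head, ATP5F1D (ENSSSCG00000035532, chromosome 2, 77216433 to 77222749), the delta subunit of the central stalk, was at 283, 400.2 and 265 FPKM in the controls, 259, 235 and 209.9 in HS0.5 and 123, 169.5 and 171 in HS0.5-R36. The 3 groups did not overlap (-1.02 ± 0.18 SE, limma adjusted p = 0.00098). The catalytic beta subunit ATP5F1B went from 408, 519 and 365 to 234, 304 and 313 FPKM (-0.60, limma adjusted p = 0.0076), and the alpha subunit ATP5F1A from 51.1, 64.9 and 48.4 to 35.9, 38.7 and 39.6 (-0.50, limma adjusted p = 0.0028). The deposited lengths of these partners are 2046 bp and 14834 bp, so their FPKM levels should not be set against each other. The stator subunit ATP5PB fell from 72.3, 98.2 and 72.8 to 49.8, 52.5 and 55.8 (-0.60, limma adjusted p = 0.0019). ATP5PO, the stator subunit that grips the head, did not pass (157, 264 and 165 and 196, 157 and 179.9 FPKM, -0.10, limma adjusted p = 0.66), but passed as a rise with quantile normalization. The inhibitor ATP5IF1 was at 8.54, 16 and 14 FPKM at 36 h, within the control range but for replicate 1 (-0.54, limma adjusted p = 0.15).

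Ratios of genes within a library do not depend on a scaling factor shared by all its genes. A library's trend with gene length stays in them where the genes differ in length, as for SDHC (8498 bp) and SDHD (1541 bp). These ratios were chosen after the values were seen and carry no test. CYCS over the median of the other tested genes was 2.44, 2.52 and 2.63 in the controls, 2.91, 3.10 and 3.14 in HS0.5 and 1.26, 0.993 and 1.01 in HS0.5-R36. Control replicate 2 sits between its partners in this ratio, and the recovered libraries lie under the rest. CYC1 over UQCRC1, both of complex III, was 1.82, 2.02 and 1.83 in the controls, 2.04, 2.10 and 2.15 in HS0.5 and 1.36, 1.25 and 1.28 in HS0.5-R36. ATP5MC1 over ATP5MC2 was 2.0, 2.06 and 2.28, then 2.23, 2.29 and 1.64, then 1.34, 1.26 and 1.21. NDUFAF4 over NDUFS1 was 0.166, 0.178 and 0.187, then 0.179, 0.192 and 0.186, then 0.0783, 0.0744 and 0.0758. In each of these the recovered libraries lay under all 6 others.

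Some ratios went the other way. SDHC over SDHD, the 2 anchors of complex II, was 0.197, 0.198 and 0.219 in the controls, 0.223, 0.215 and 0.260 in HS0.5 and 0.344, 0.298 and 0.306 in HS0.5-R36. COX6A2 over COX6A1, the muscle and common forms of 1 subunit, was 0.513, 0.493 and 0.534, then 0.499, 0.450 and 0.574, then 0.787, 0.595 and 0.647. SDHC over SDHB was 0.784, 0.648 and 0.827, then 0.705, 0.687 and 0.566, then 0.899, 1.06 and 1.10. The recovered libraries lay above the other 6 in each of these ratios. COX6A1 overlaps SRSF9 and GATC in the deposited table, 1 of them on the same strand, and the sources used here do not say whether counting used strand. Its deposited length is 4860 bp, while the RefSeq gene of that name in Sscrofa11.1 spans 2211 bp.

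The comparison of HS0.5-R36 with HS0.5 leaves control replicate 2 out of the difference and keeps it only in the estimate of spread. Of the 77 genes, 22 fell and 3 rose (28.6% and 3.90%), where 63.8% of all genes passed, 35% downward and 28.8% upward. The median log2 change was -0.17, against -0.07 over all genes. With the filter of at least 5 FPKM in 3 libraries it was -0.16, against -0.20 over all genes. The recovered libraries lay below the HS0.5 libraries for 37 genes and above them for 4 (41.6% and 33.6% of all genes). Without control replicate 2 in the fit the same differences gave 34 falls and 6 rises (40.6% and 33.1% of all genes), and the 22 falls were among the 34. Without HS0.5 replicate 3, and likewise without HS0.5-R36 replicate 1, 13 of the 22 falls were kept. Rescaling to the same sum gave 6 falls and 14 rises (19.6% and 43.3% of all genes) with a median of 0.15, below the 0.23 of all genes under that scaling. Quantile normalization gave 12 falls and 23 rises (32.5% and 32.1% of all genes) with a median of 0.093, above the -0.01 of all genes.

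A set of 6 genes fell between 0 h and 36 h in every alternative that tested them. The share of all tested genes that did so is not given here, so this count has no background. The log2 change of CYCS was -1.52 ± 0.14 (SE, limma adjusted p = 1.4e-05), that of CYC1 -0.91 ± 0.17 (0.0014 by the same test) and that of NDUFAF4 -1.08 ± 0.07 (limma adjusted p = 1.9e-06). The others were NDUFAF6 (-0.83), NDUFAF5 (-0.72) and NDUFAF2 (-0.59). NDUFS6, COX17 and ATP5F1D passed as well (-0.52, -0.57 and -0.61), and ATP5MC1 did not (-0.49, limma adjusted p = 0.071). ATP5PB, ATP5F1A, UQCRFS1 and COX11, a copper-handling assembly factor, fell by 0.45, 0.42, 0.24 and 0.36.

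The 3 rises were NDUFA1, NDUFB4 and SDHC. NDUFA1 rose by 0.61 (limma adjusted p = 0.045), with HS0.5-R36 replicate 1 at 7.66 FPKM, inside the HS0.5 range, and the other recovered libraries at 13.9 and 13.5. NDUFB4, an accessory subunit of the membrane arm, was at 59, 92.7 and 64.4 FPKM in the controls, 50.7, 50.5 and 45.6 in HS0.5 and 56.9, 80.2 and 84.7 in HS0.5-R36. The recovered values lay above HS0.5 and overlapped the controls (0.57 ± 0.19 SE, limma adjusted p = 0.025). SDHC rose by 0.28 (limma adjusted p = 0.044), again with all recovered values above HS0.5. Leaving out any 1 HS0.5 library, or HS0.5-R36 replicate 2 or 3, left none of the 3 rises called, and leaving out control replicate 1 left 1.

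The height of control replicate 2 went with gene length. Its FPKM over the mean of controls 1 and 3 had a median of 1.54 across the 77 genes and was above 1 for 72. It was 1.64 for the 22 genes under 1000 bp, 1.54 for the 30 from 1000 to 3000 bp and 1.31 for the 25 of 3000 bp and longer. Over all tested genes the same medians were 1.32, 1.27 and 0.947, and 1.04 in all. The tested respiratory chain genes had a median deposited length of 2009 bp, against 4128 bp for all. Across genes, which are not independent replicates, Spearman's rho of the ratio with length was -0.499 over the 77 and -0.443 over all tested genes. With each library's length trend removed, 38 genes fell at 36 h and 0 rose (32.7% and 32.9% of all genes), and 36 of them were among the 39. HS0.5-R36 replicate 1 over the mean of its partners had a median of 0.882, and 0.771 for genes under 1000 bp. The part of RNA quality or library preparation in these differences was not tested.

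**Figure D5:**
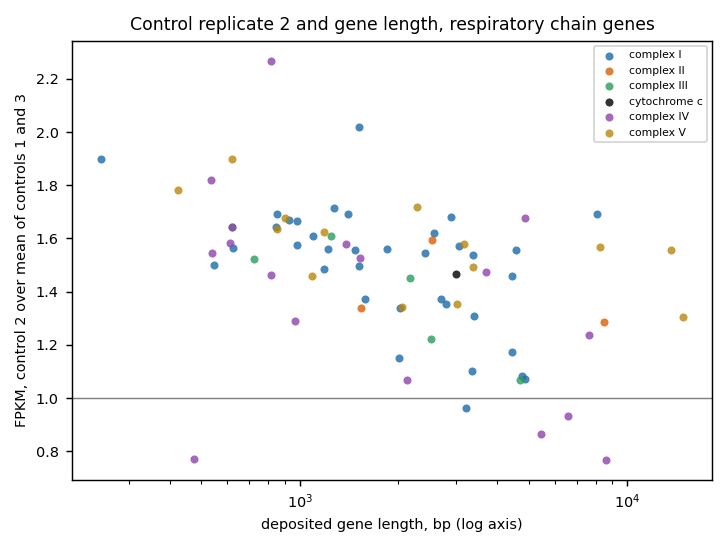
FPKM of control replicate 2 divided by the mean of control replicates 1 and 3 against deposited gene length in bp (log axis) for the 77 tested genes, coloured by complex, with a line at 1. Of the points, 72 lie above 1, and the medians fall from 1.64 under 1000 bp to 1.31 at 3000 bp and longer.

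Transcripts of the subunits made inside mitochondria mostly did not pass. Of the 13 mitochondrially encoded subunits, 0 passed at 0 h (3.62% of all genes did), with a median log2 change of 0.37. At 36 h the median was 0.00 and 1 passed (63.1% of all genes did), ND3 of complex I, which fell by 0.45 (limma adjusted p = 0.034). With the same sum per library it was COX1 that passed, as a rise of 0.41 (limma adjusted p = 0.047). The summed FPKM of the 83 nuclear genes was 10.2%, 14.0% and 9.44% of that of the 13 subunits in the controls, 8.37%, 6.89% and 6.00% in HS0.5 and 5.32%, 9.53% and 9.22% in HS0.5-R36. The HS0.5 libraries lay under the controls, and the recovered libraries overlapped both, with HS0.5-R36 replicate 1, which also had the highest share of mitochondrial reads (6.70%), as the lowest. The summed FPKM of the 13 subunits was 40598, 44005 and 41854.5 in the controls and 46822, 55139 and 63102.5 in HS0.5. It was 54337, 35969 and 38591 in HS0.5-R36. The lower percentages in HS0.5 thus also hold a higher sum of the 13 subunits, and are not a measure of the nuclear genes alone.

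Other genes of the pathway were read from lists, with 34.6% of all genes falling and 28.5% rising at 36 h as the background. With FPKM rescaled to the same sum the background was 19.7% falling and 43.3% rising. Of 25 tested assembly factors outside the naming rule, 12 fell and 1 rose. BCS1L, which inserts the Rieske protein into complex III, fell from 26.8, 40.1 and 25.8 to 13.2, 12.7 and 13.4 FPKM (-1.15, limma adjusted p = 0.00011), and LRPPRC, which stabilises mitochondrial messenger RNA, from 46.1, 38.2 and 44.5 to 22.4, 20.4 and 20.7 (-0.98, limma adjusted p = 1.8e-05). ATPAF1, an assembly factor of ATP synthase, rose by 0.23 (limma adjusted p = 0.02). Rescaled to the same sum, 8 fell and 5 rose.

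Most genes of protein import fell. Of 17 tested import genes 14 fell and 1 rose, with a median log2 change of -1.14, and 13 fell with the same sum per library. TOMM40, the pore of the outer membrane, fell from 89.7, 123 and 79.6 to 24.1, 32.8 and 33.2 FPKM (-1.65, limma adjusted p = 4.7e-05). CHCHD4, which imports and oxidises small proteins of the intermembrane space such as COX17, fell from 55.7, 78.6 and 45.2 to 20.9, 23.3 and 23 (-1.34, limma adjusted p = 0.0001). DNAJC19 rose (0.37, limma adjusted p = 0.023).

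Of 19 tested regulators of mitochondrial biogenesis, 12 fell and 3 rose at 36 h. MYC fell from 116, 126 and 118 to 31, 28.8 and 29.6 FPKM (-1.97, limma adjusted p = 4.1e-07), and PPRC1, a coactivator of the PGC-1 family, from 36.5, 31.3 and 39.5 to 14.8, 14 and 14.2 (-1.26, limma adjusted p = 4.8e-06). At 0 h 2 regulators fell and 2 rose, where 1.32% of all genes fell and 2.29% rose. The falls were PPARGC1B (-0.45, limma adjusted p = 0.022) and the mitochondrial RNA polymerase POLRMT (-0.38, limma adjusted p = 0.03). PPRC1 was higher (49.6, 48.9 and 45.8, 0.42, limma adjusted p = 0.041), as was GABPA, a subunit of the factor GABP, which binds promoters of respiratory chain genes (0.53, limma adjusted p = 0.038). With the same sum per library 0 of the 4 passed (limma adjusted p from 0.061 to 0.11), and GABPA did not pass without control replicate 2 (limma adjusted p = 0.054). The orphan receptors ESRRG (0.357, 0.163 and 0.509 to 3.03, 1.75 and 1.95 FPKM, 1.26, limma adjusted p = 0.00013) and ESRRA (0.40, limma adjusted p = 0.03) rose at 36 h. Under the same-sum scaling 6 regulators fell and 6 rose.

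Of the 14 Krebs cycle genes 10 fell and 1 rose, led by IDH3A (31.1, 30.9 and 31.3 to 15.9, 14.7 and 15.9 FPKM, -0.96, limma adjusted p = 3.4e-06) and MDH2 (-0.86, limma adjusted p = 5.1e-05), with SUCLG2 as the rise (0.21, limma adjusted p = 0.048). Under that scaling 3 fell and 3 rose. Of 15 carriers and inner membrane proteins 7 fell and 0 rose, among them the channel VDAC2 (-1.34, limma adjusted p = 1.3e-05) and the scaffold PHB2 (-1.05, limma adjusted p = 8.3e-06), and 5 fell and 2 rose with the same sum. Of 10 genes of cardiolipin and ubiquinone synthesis 4 fell and 2 rose, and 2 fell and 3 rose with the same sum. COQ2 (-0.79) and PDSS1 (-0.69), which build ubiquinone, fell (limma adjusted p = 0.0001 and 0.00068), and COQ8A (1.26) and COQ9 (0.44), which support the same pathway, rose (limma adjusted p = 5e-06 and 0.008). Of 7 genes of oxygen radical defence 3 fell and 0 rose, TXN2 (-0.82, limma adjusted p = 0.0027), TXNRD2 (-0.41, limma adjusted p = 0.02) and the superoxide dismutase SOD2 (-0.17, limma adjusted p = 0.049), while 3 fell and 3 rose without control replicate 2, and 1 fell and 4 rose with the same sum per library.

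Cell type markers differed in the 36 h comparison, and their part in the results above was not tested. Of 13 Sertoli markers 9 were in the table and 4 passed the filter: SOX9, WT1, AMH and INHBB. The summed level of the 9 was 41.3 to 46.2 FPKM in control, 41.5 to 46.2 in HS0.5 and 13.2 to 16.2 in HS0.5-R36. DMRT1 and INHA were listed at 0 in all control and HS0.5 libraries, and KITLG, NR5A1 and DHH were at 0 to 0.198 FPKM in all 9, so these markers of the labelled cell type were at or near 0. The kidney and Wolffian tubule markers PAX2, CDH16 and LRP2 summed to 83.9 to 91.1 FPKM in control, 65.1 to 71.6 in HS0.5 and 182 to 186 in HS0.5-R36. The 4 epithelial markers summed to 385 to 608, 374 to 402 and 315 to 427.

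The 3 Leydig markers in the table summed to 2.46 to 3.30 FPKM in control, 2.43 to 2.78 in HS0.5 and 3.59 to 4.95 in HS0.5-R36, with CYP17A1 at or near 0. The 4 markers of peritubular myoid cells and smooth muscle summed to 6.89 to 9.85, 6.28 to 7.01 and 1.88 to 2.43, mostly from DES, with MYH11 at 0 to 0.020. The 2 germ cell markers summed to at most 0.330 and the 3 endothelial markers to at most 1.32 in any library. The 3 leukocyte markers summed to 2.04 to 2.33, 2.81 to 3.21 and 3.80 to 4.33, mostly from CD68, with CSF1R at 0 to 0.0355. In bulk RNA, fewer cells of a type and less RNA per cell cannot be told apart.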

How the data were processed

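The submitters' processing notes name bcl2fastq and HISAT2 2.0.5, an aligner. The genome build, the counter and the use of strand are not given in the sources used here. The values are FPKM per gene, deposited by the authors with gene length and coordinates. FPKM times length was a whole multiple of 1 constant per library for 100% of values (tolerance 1e-06), which gave reads per gene and a depth of 18110565 to 21034021 reads. One read in 1 kb was worth 0.0413 to 0.0576 FPKM, and depth covers counting error only.

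Genes of at least 1 FPKM in 3 of 9 libraries (11479) entered limma 3.58.1 (R 4.3.3, trend) on log2(FPKM + 1), with 1 mean per group over all 9 libraries, two-sided, Benjamini-Hochberg adjusted over all genes, threshold 0.05. This scale understates changes of low genes. The procedure was tested on simulated data with noise drawn separately for each gene. The simulation held no shift of a whole library and no trend with gene length, so it does not cover these. Comparisons with control share the control libraries. The 18 alternatives covered pseudocount, filters, scaling, voom on recovered reads (7249 genes called at 36 h), length trend, samples in the fit, a replicate block and leaving out each library. Genes were named by role and as the 3 largest changes per complex that passed, and from each list the 2 largest in each direction. Others, including NDUFA1, NDUFAF7, UQCRQ, COX15 and the stably called genes, were chosen after their values were seen. The members and lists were chosen with earlier results of these data known. A promoter motif search was not run, and 1 tested gene and 1 marker are not reported here by name. The table has 8 further lines without values.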

Additional observations from a re-analysis of the deposited data

How the results depend on the processing

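At 0 h, 0 genes were called lower in the reported fit, 1 with the length trend removed and 0 to 1 when 1 library was left out, with medians of -0.33 to -0.08. At 36 h, 39 lower became 13 with the same sum per library and 20 with quantile normalization, and 26 to 49 when 1 library was left out. The lowest was without HS0.5-R36 replicate 1, the highest without control replicate 3. Of the fits that left out 1 library, shares of all genes are given only for that without control replicate 2. They are also not given for no filter and for the compared groups alone. Genes called higher went from 0 to 1 with no filter, 1 with voom, 5 with the same sum, 11 with quantile normalization, and 0 to 1 when 1 library was left out. The median went from -0.44 to -0.11 with the same sum and -0.093 with quantile normalization, and ran from -0.56 to -0.24 when 1 library was left out.

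From HS0.5 to HS0.5-R36, 22 lower became 6 with the same sum, 12 with quantile normalization and 13 to 34 when 1 library was left out, with 13 without HS0.5 replicate 3 or HS0.5-R36 replicate 1 and 34 without control replicate 2. The 3 called higher became 1 with no filter, 14 with the same sum, 23 with quantile normalization, 5 with the compared groups alone and 0 to 6 when 1 library was left out. The median of -0.17 became 0.15 and 0.093 under the same sum and quantile normalization, and ran from -0.22 to -0.11 when 1 library was left out. The cause was not tested.

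Single genes turned from lower to higher under quantile normalization at 36 h, to 0.45 for COX8A, 0.080 for COX5A, 0.33 for NDUFA4, 0.13 for UQCRC1, 0.057 for SDHD, 0.23 for UQCRC2, 0.22 for UQCRFS1 and 0.36 for NDUFS1. Of these, COX8A, NDUFA4, UQCRC2, UQCRFS1 and NDUFS1 passed as rises. With the same sum, which moved the median of all genes from -0.06 to 0.23, estimates turned to 0.054 for UQCRC2, 0.10 for UQCRFS1, 0.29 for NDUFS1 and 0.31 for COX7A2L. Among them NDUFS1 and COX7A2L passed as rises. Against HS0.5, quantile normalization gave 0.33 for COX5A, 0.31 for UQCRC1, 0.043 for ATP5PB, 0.29 for UQCRC2, 0.16 for UQCRFS1 and 0.28 for NDUFS1, and the same sum gave 0.20 for UQCRC2, 0.091 for UQCRFS1 and 0.24 for NDUFS1. There COX5A, UQCRC1, UQCRC2 and NDUFS1 passed as rises with quantile normalization, and UQCRC2 and NDUFS1 with the same sum. UQCRC2 and UQCRFS1 stayed under the median of all genes with the same sum. At 36 h, 584 values of named genes kept direction and side of the threshold, 32 lost their call, 17 gained one and 12 reversed.

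Shares of all genes are not given for a fit with the replicate number as a block. In that fit, 0 genes were called at 0 h, 40 lower and 0 higher at 36 h, and 23 lower and 2 higher against HS0.5. The numbers did not pair the libraries: correlations of same-numbered deviations ran from -0.429 to 0.265, and 2 of 9 libraries correlated best with their own number. Few reads limit what COX4I2, COX7A1, COX20 and COX19 can show, and these, NDUFS8 and NDUFA4L2 did not reach the filter of 1 FPKM. Of the 83 genes, 44 overlap another gene of the table, 17 on the same strand, so their reads may be shared.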

Other observations

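A set of 5 further rows carries no respiratory chain symbol in the deposited table but matches such a gene by identifier in the RefSeq annotation of Sscrofa11.1, and these were outside the naming rule. NDUFB1, an accessory subunit of complex I, was at 48.3, 79.9 and 45.5 FPKM in control and 29.6, 39.2 and 37 in HS0.5-R36 and fell by 0.66 on the log2 scale (limma adjusted p = 0.017). Its estimate was -0.41 without control replicate 2, and it did not pass with the same sum, quantile normalization or the length trend removed (limma adjusted p = 0.096, 0.33 and 0.079). UQCR11, a small subunit of complex III, fell by 0.72 (limma adjusted p = 0.02) and did not pass with the same sum (limma adjusted p = 0.1). Neither NDUFB1 nor UQCR11 passed without HS0.5-R36 replicate 1. NDUFA7 (-0.56, limma adjusted p = 0.051), the complex II flavoprotein SDHA (-0.05, limma adjusted p = 0.73) and COX7B (0.05, limma adjusted p = 0.84) did not pass. SDHA passed as a rise with the same sum (0.30, limma adjusted p = 0.0082) and quantile normalization (0.42, limma adjusted p = 0.00066). COX7B passed as a rise without control replicate 2 (0.33, limma adjusted p = 0.0032), with the same sum (0.39, limma adjusted p = 0.039) and with quantile normalization (0.50, limma adjusted p = 0.017). The adjusted p of NDUFA7 over the alternatives ran from 0.035 to 0.34.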
